A study of Mus musculus with 2 samples.

Results

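To describe how mammary epithelial cells that can sense systemic hormones appeared in this culture system, 9 genes were followed among the 49492 genes of the count table: Esr1, Pgr, Prlr, Nr3c1, Foxa1, Greb1, Cited1, Tnfsf11 and Calca. They were taken by name, as hormone receptors and hormone-sensing luminal genes. They were selected on the read counts of the same 2 libraries that are compared here, so their differences are given as a description and not as a test. Basal cells were sorted as CD24+CD29hi lineage-negative cells from mammary glands of adult female wild-type (WT) mice and cultured in matrix gel. They were kept alone (ctrl, treatment none) or with M2-like macrophages in the same well (M2). Both groups were in DMEM/F12 with EGF and insulin, transferrin and selenium, and the study's methods list estradiol, progesterone and prolactin as additions used only when needed, which the labels of neither library name. The macrophages were derived from bone marrow, polarised with Il-4 and Il-13, and held apart from the gel by the membrane of a transwell chamber. The study's methods give 11 to 14 days for the co-culture. The day of harvest of each library, the mouse strain of the sorted cells and the number of animals behind a library are not given in the sources used here.

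With 1 library in each group, the differences between libraries have no replicate check. Reads in genes came to 26912610 (ctrl) and 29413844 (M2). Epithelial markers were high in both. Epcam had 20919 and 22821 reads, the basal keratin gene Krt14 81991 and 68968, and the luminal keratin gene Krt8 29888 and 36348. Markers of basal and luminal cells were thus present together, and in these bulk libraries fewer cells of a type and less RNA per cell cannot be told apart.

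As background, estrogen and progesterone act on the mammary gland through nuclear receptors found in a subset of luminal cells, the hormone-sensing cells. Those cells pass the signal on to their neighbours through secreted factors, among them amphiregulin and RANK ligand (Tnfsf11). Prolactin acts through a cytokine receptor at the cell surface and STAT5, and drives milk protein genes in alveolar cells. Glucocorticoids act through Nr3c1, a nuclear receptor made in most cell types.

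The stretches upstream of 4 members that had fewer reads in M2 are shown first, because Esr1 and Pgr encode DNA-binding receptors, Foxa1 encodes a forkhead factor that opens chromatin for the estrogen receptor, and Greb1 is an estrogen receptor target. Each is the 250 bases before a transcription start in RefSeq (GRCm38.p6), 5′ to 3′ on the strand of the gene. Capitals mark, on either strand, the nuclear receptor core motif AGGTCA, the steroid receptor core motif AGAACA and the forkhead motifs TGTTTAC and TGTTTGC. Esr1 and Greb1 each have another stretch, not shown, in which none of these motifs was found (chr10:4709908-4710157 and chr12:16757240-16757489). The Esr1 stretch shown lies inside the counted gene, whose span starts at 4611593.
Esr1, chr10:4611739-4611988, plus strand: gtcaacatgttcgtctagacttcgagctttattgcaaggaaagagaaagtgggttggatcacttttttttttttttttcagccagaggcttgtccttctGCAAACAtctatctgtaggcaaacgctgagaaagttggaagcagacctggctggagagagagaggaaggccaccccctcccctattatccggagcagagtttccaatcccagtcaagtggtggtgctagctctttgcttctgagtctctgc
Pgr, chr9:8899583-8899832, plus strand: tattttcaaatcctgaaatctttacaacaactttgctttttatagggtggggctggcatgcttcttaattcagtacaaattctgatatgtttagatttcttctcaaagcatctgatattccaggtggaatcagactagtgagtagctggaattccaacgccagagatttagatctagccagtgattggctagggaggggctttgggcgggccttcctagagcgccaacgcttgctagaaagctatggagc
Foxa1, chr12:57546112-57546361, minus strand: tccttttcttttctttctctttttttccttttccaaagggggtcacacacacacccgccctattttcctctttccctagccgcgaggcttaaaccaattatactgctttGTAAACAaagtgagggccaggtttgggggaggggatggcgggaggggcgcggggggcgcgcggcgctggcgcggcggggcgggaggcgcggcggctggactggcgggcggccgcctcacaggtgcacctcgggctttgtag
Greb1, chr12:16800887-16801136, minus strand: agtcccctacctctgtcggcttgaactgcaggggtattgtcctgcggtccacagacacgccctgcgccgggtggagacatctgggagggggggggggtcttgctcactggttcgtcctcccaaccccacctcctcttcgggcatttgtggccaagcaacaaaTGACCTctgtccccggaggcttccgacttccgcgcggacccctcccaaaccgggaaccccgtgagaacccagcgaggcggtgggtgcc

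Across the 14 such stretches of 8 members in the table used, the complete estrogen response element (GGTCA, any 3 bases, TGACC) was found in 0, and it was in 0.0639% of the 32851 stretches of all genes. AGGTCA, which overlaps the complete element, was in 3 of the 14 (Greb1, Cited1 and Calca), against 14.0% of all stretches. A forkhead motif was in 3 of the 14, 1 each of Esr1, Foxa1 and Prlr, against 7.29%. AGAACA was in 1, a downstream start of Prlr, against 16.1%. These matches describe letters only, and the absence of a match says nothing of sites elsewhere.

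In the ctrl library, hormone receptors were well above the detection limit. Levels per gene length are given as RPKM (CPM, the counts per 1e6 scaled reads, divided by the kilobases of annotated exons), with the 95% exact Poisson interval of the count. Foxa1 stood at 27.9 (26.8 to 29.03), the highest of the 9 genes. Pgr, the progesterone receptor, followed at 13.6 (13.1 to 14.1) and Nr3c1 at 13.3 (12.8 to 13.8). The intervals of these last genes overlap, so their order is not resolved. The prolactin receptor Prlr stood at 9.42 (9.12 to 9.71). Greb1 at 4.21 and Cited1 at 4.09, a transcriptional co-activator of the estrogen receptor, also had overlapping intervals. Esr1, the estrogen receptor itself, was lower at 2.74 (2.58 to 2.91), near the middle of all 19233 genes with at least 10 reads over both libraries, whose median was 3.74. Levels per length depend on the annotated exons, which are long for Esr1 (13661 bases) and Prlr (15339 bases).

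In the M2 library the order was different. Nr3c1 at 9.90 RPKM (9.49 to 10.3) and Foxa1 at 9.50 (8.88 to 10.2) came first, with overlapping intervals. Cited1 was next at 7.30 (6.57 to 8.08), above Prlr at 3.12, Pgr at 2.33, Esr1 at 0.714 and Greb1 at 0.496. Counting intervals of each of these neighbours were apart. Pgr moved from the 78.4 percentile of all genes tested to the 40.1 percentile, and Greb1 from 52.7 to 18.7.

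**Figure D1:**
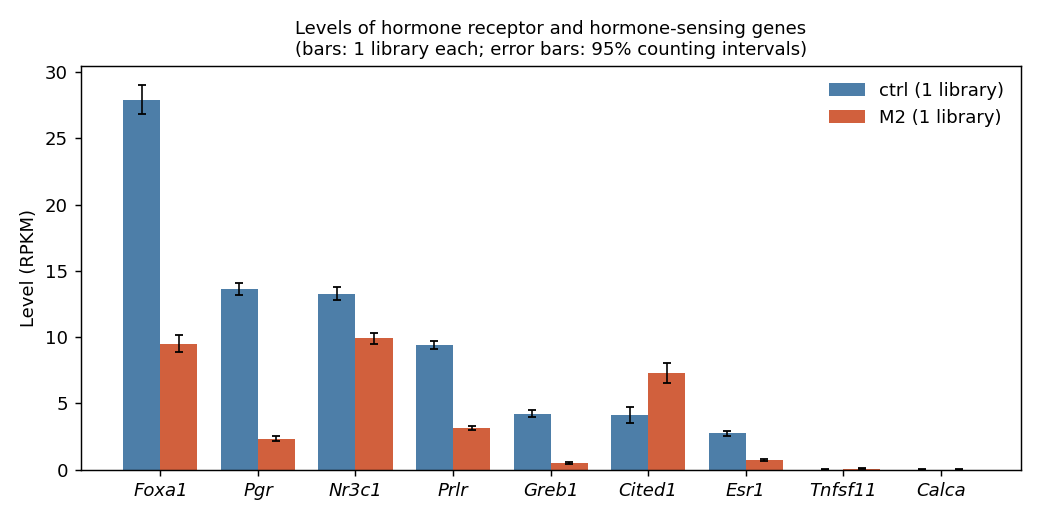
Level of each of the 9 genes in RPKM (vertical axis, from 0) in the ctrl library (blue) and the M2 library (orange), 1 library per bar, with 95% counting intervals. Foxa1, Pgr, Prlr, Greb1 and Esr1 have much shorter M2 bars, Nr3c1 a slightly shorter one and Cited1 a taller one, while Tnfsf11 and Calca are at or near 0.

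To compare the libraries, reads were scaled to TMM effective library sizes, which correct the totals for composition, and the log2 difference is that of M2 over ctrl with 1 read added to each count. Its 95% interval is the exact Clopper-Pearson interval of the share of reads in M2 and covers counting error only. A gene was called when at least 10 reads were found over both libraries, the difference was at least 2-fold and this interval left out 0. By this rule 8.45% of the 19233 genes tested were called higher in M2 and 6.80% lower. Of the 9 members, 7 had enough reads, and 5 of these were called lower and 0 higher. These shares cannot be read against each other, as the contrast itself chose the members. The median over the 7 was -1.59, and that of all genes tested was -0.0032.

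All 9 genes are annotated as protein-coding, and a count covers every exon of the gene, coding or untranslated. Among the receptors, Pgr (chromosome 9, 8899833 to 8968611) had 3195 ctrl reads and 575 M2 reads, or 116 and 19.95 CPM. Its log2 difference was -2.54 (95% interval -2.67 to -2.41), a level 5.82-fold lower in M2. Esr1 (chromosome 10, 4611593 to 5005614) had 1028 and 281 reads, or 37.4 and 9.75 CPM, a difference of -1.94 (-2.14 to -1.75). Both sex steroid receptors were therefore several-fold lower in the M2 library. The pair did not differ from ctrl by the same amount, since Esr1 reads per Pgr read went from 0.322 to 0.489, a log2 change of 0.60 (0.37 to 0.83) that needs no library scaling. The intervals of this and all later changes in read ratios are 95% normal approximations from the counts, not exact ones. They too cover counting error only.

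Prlr (chromosome 15, 10177238 to 10349180) had the most reads of the 9 genes in ctrl, 3967, against 1379 in M2. In CPM these were 144 and 47.9, a log2 difference of -1.59 (-1.68 to -1.50), or 3.02-fold lower. The long and short forms of the receptor cannot be separated in gene counts. The gene Gm21973 (chromosome 15, 10325380 to 10373749) overlaps the end of Prlr on the same strand, runs on past it, and shares 203 exonic bases with it. It had 275 and 128 reads, so some reads of the pair could be exchanged.

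Nr3c1 (chromosome 18, 39410545 to 39491301) differed least from ctrl. Its reads numbered 2709 in ctrl against 2119 in M2, or 98.6 and 73.5 CPM, a log2 difference of -0.42 (-0.51 to -0.34), which is under the 2-fold threshold. Against Nr3c1 as a reference within the same library, Pgr went from 1.18 to 0.271 reads per read, a log2 change of -2.12 (-2.27 to -1.97). Esr1 went from 0.379 to 0.133, a change of -1.52 (-1.72 to -1.31). The receptors of sex steroids and of glucocorticoids thus differed unequally between the libraries.

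Of the factors that work with the estrogen receptor, Foxa1 (chromosome 12, 57540631 to 57546121) had 2443 and 873 reads, or 88.9 and 30.3 CPM. Its log2 difference was -1.55 (-1.67 to -1.44). This was close to that of Prlr: the Prlr to Foxa1 read ratio was 1.62 in ctrl against 1.58 in M2, and its log2 change of -0.04 had an interval of -0.18 to 0.10. Cited1 (chromosome X, 102247381 to 102252181) was the exception among the genes with enough reads. Its reads numbered 197 in ctrl against 369 in M2, or 7.17 and 12.8 CPM, a log2 difference of 0.83 (0.58 to 1.09), positive but under the 2-fold threshold.

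Greb1 (chromosome 12, 16670615 to 16800886), an early target of the estrogen receptor, showed the widest gap. Its reads numbered 1109 in ctrl against 137 in M2, or 40.4 and 4.75 CPM, a log2 difference of -3.08 (-3.35 to -2.83), a level 8.44-fold lower. This lay at the 1.01 percentile of the differences of all genes tested. The ratio of Greb1 to Esr1 reads also differed, as the count of Esr1 per Greb1 read went from 0.927 to 2.05, a log2 change of 1.15 (0.83 to 1.46). Per progesterone receptor read Greb1 was lower as well, with 2.88 Pgr reads per Greb1 read in ctrl against 4.20 in M2, a log2 change of 0.54 (0.26 to 0.83).

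**Figure D2:**
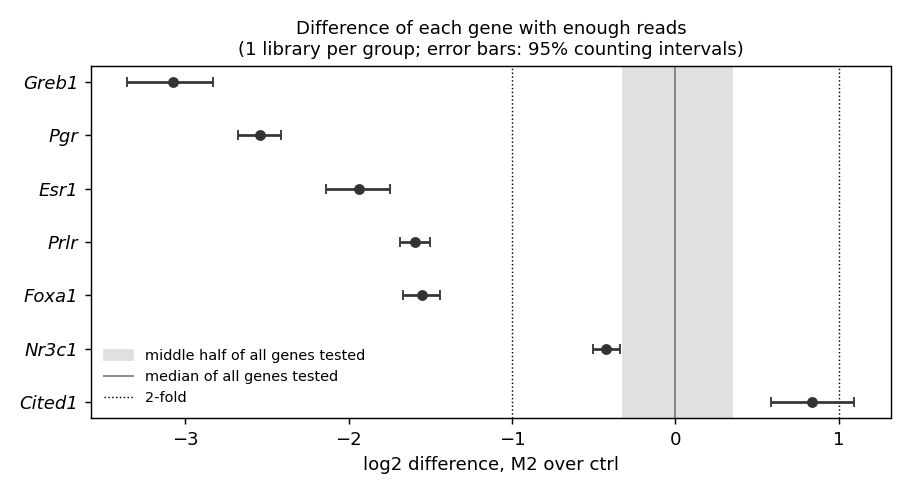
log2 difference, M2 over ctrl (horizontal axis), of the 7 genes with enough reads, with 95% counting intervals, 1 library per group. The grey band runs from the lower quartile (-0.32) to the upper quartile (0.35) of all genes tested, and dotted lines mark 2-fold. Greb1, Pgr, Esr1, Prlr and Foxa1 lie left of the lower line, Nr3c1 lies just left of the band, and Cited1 lies between the band and the upper line.

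The paracrine members were at or near the limit of detection. Tnfsf11 (chromosome 14, 78277445 to 78308043), the ligand that passes the progesterone signal to neighbouring cells, was counted with 0 ctrl reads and 4 M2 reads. With 3 reads taken as the limit that a count of 0 allows, the ctrl level was at most 0.109 CPM, and the 2-sided exact Poisson interval used for the other levels reaches 0.134. The 4 reads correspond to 0.139 CPM, with such an interval of 0.0378 to 0.355, so no fold is given. Calca (chromosome 7, 114631478 to 114636357), which encodes calcitonin and the peptide CGRP, had 0 reads in both libraries, for which the limit of 3 reads is 0.109 CPM in ctrl and 0.104 in M2. A difference in either gene was not detectable at this depth. The receptor for the Tnfsf11 ligand, Tnfrsf11a, had 1327 and 1220 reads and a log2 difference of -0.19 (-0.30 to -0.08).

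**Figure D3:**
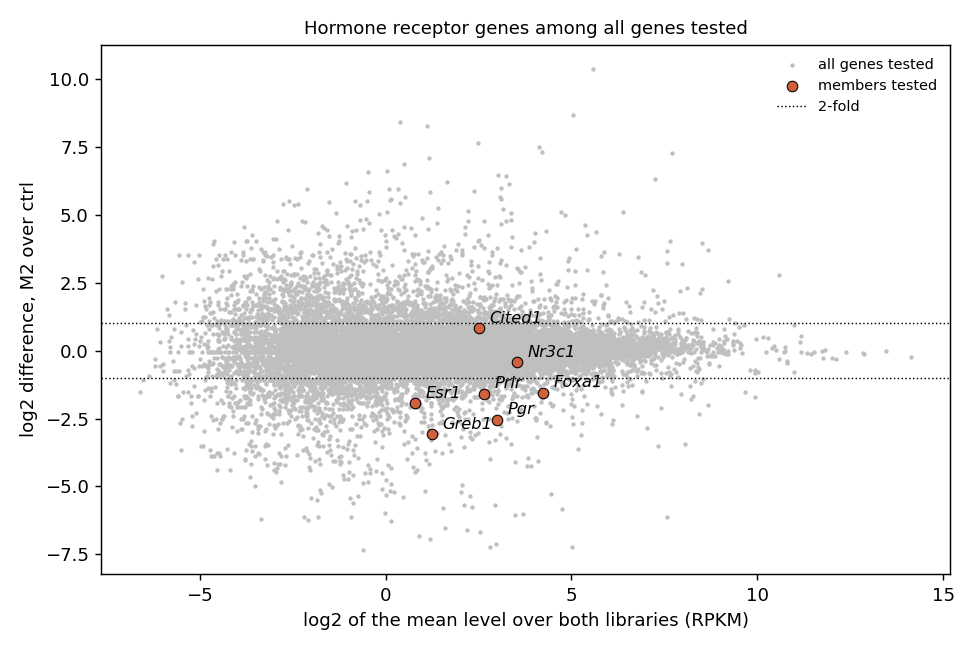
log2 difference, M2 over ctrl (vertical axis), against the log2 of the mean RPKM over both libraries (horizontal axis) for the 19233 genes tested (grey) and the 7 members among them (orange, named). Dotted lines mark 2-fold. Greb1, Pgr, Esr1, Prlr and Foxa1 lie below the lower line, where other genes lie further from 0 still, and Nr3c1 and Cited1 lie within the lines.

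To place the members in their pathways, 8 lists of related genes were examined. Without the members they held 109 genes, of which 93 had enough reads. Of these, 13 (14.0%) were called higher and 15 (16.1%) lower, and their median was -0.11. Over all genes tested the shares were 8.45% and 6.80%. Of the 93 genes, 34 lay above 0 and 59 below (63.4%, against 50.3% of all genes tested). The lists together thus went both ways with more genes below 0 than above. They were drawn up with earlier results known, so these shares are a description only. Single lists are described next.

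Among the other steroid and thyroid receptors, 7 had enough reads, 1 was called higher and 2 lower. The thyroid hormone receptor gene Thrb had 369 and 83 reads, a log2 difference of -2.21 (-2.58 to -1.87), and the mineralocorticoid receptor gene Nr3c2 had 1046 and 511, a difference of -1.10 (-1.26 to -0.95). The vitamin D receptor gene Vdr, with the most reads of the list (3959 and 3753), differed by -0.15. The call in the other direction was the membrane estrogen receptor gene Gper1, which rests on 4 and 14 reads. Esr2, the other estrogen receptor gene, had 1 and 3 reads. Gper1 and Esr2 were picked with their values in view, as was Tnfrsf11a above.

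Of 9 further membrane receptor genes with enough reads, only the oxytocin receptor gene Oxtr was called. Oxtr is a gene of basal, contractile cells and had 8324 and 1920 reads, a difference of -2.18 (-2.26 to -2.11). The insulin-like growth factor receptor Igf1r differed by 0.41, and the progesterone-binding membrane protein gene Pgrmc2 by -0.13. Neither reached the 2-fold threshold.

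Cofactors of nuclear receptors mostly did not reach the threshold. Of 17 genes other than members, 1 was called higher, 1 lower and 15 neither, with a median of -0.04. The co-repressor gene Ncor1 differed by -0.04, and the chaperone gene Fkbp4 by -0.01. Gata3, a luminal transcription factor, had 2971 and 2896 reads, a difference of -0.11. Xbp1 was called higher, with 4191 and 8947 reads and a difference of 1.02 (0.97 to 1.08), and Spdef was called lower on 37 and 8 reads.

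Estrogen targets went both ways. Of 14 genes other than members with enough reads, 2 were called higher, 2 lower and 10 neither, and the median was -0.29. Areg encodes amphiregulin, the growth factor through which estrogen acts on neighbouring cells. It had 1137 ctrl reads against 315 M2 reads, a difference of -1.92 (-2.11 to -1.74). Stc2, a secreted glycoprotein gene, had 9668 and 2572 reads, a difference of -1.98 (-2.04 to -1.92). In the other direction, Igfbp4, picked with its values in view, had 424 and 1440 reads and differed by 1.69 (1.54 to 1.85), and Xbp1 is given above. Ccnd1 (-0.15), Ctsd (0.32) and Igfbp5 (-0.46) were not called.

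In the list of progesterone and paracrine signals, 13 genes had enough reads, none of them a member. 3 were called higher and 2 lower, and the median was 0.08. Tnfrsf11b encodes osteoprotegerin, the decoy receptor that binds the Tnfsf11 ligand. It had 74 and 563 reads, a difference of 2.84 (2.51 to 3.23). Rspo1 (2.12), a secreted Wnt enhancer, was also higher. Lgr5, a receptor for R-spondins, had 3322 and 602 reads and was lower by a log2 value of -2.53 (-2.66 to -2.41), whereas the related Lgr4 and Lgr6 differed by -0.73 and -0.45. Egfr, the receptor for amphiregulin, differed by 0.46 and was not called.

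Targets of the glucocorticoid receptor also went both ways. Of 16 genes, 4 were called higher, 3 lower and 9 neither, with a median of -0.04. Pdk4, a kinase that limits glucose oxidation, had 56 and 788 reads, a difference of 3.72 (3.35 to 4.16). The kinase gene Sgk1 (1.21) and the metallothionein gene Mt2 (1.15) were also higher. The glutamine synthetase gene Glul (-1.28) and the phosphatase gene Dusp1 (-1.04) were lower, as was Zbtb16 on 33 and 12 reads.

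Downstream of Prlr, 12 genes of prolactin signalling and milk had enough reads, 3 were called higher and 3 lower, and their median was 0.21. Elf5, a transcription factor of alveolar cells, had 5704 and 2776 reads, a difference of -1.11 (-1.17 to -1.04), and Stat5a, a transcription factor activated through Prlr, had 2186 and 1091, a difference of -1.07. Stat5b, its close relative, differed by -0.50 and was not called. The 2 Stat5 genes were picked with their values in view. Milk protein genes went both ways. Of the caseins, Csn1s1 had 460 and 74931 reads, a difference of 7.28 (7.15 to 7.41), and Csn3 5916 and 16755 reads, a difference of 1.43 (1.39 to 1.48). Csn2 was higher on 2 and 138 reads, with an interval of 4.16 to 9.10, and Csn1s2a had too few reads (2 and 1). Lalba, which encodes the milk protein alpha-lactalbumin, was lower on 67 and 29 reads, a difference of -1.25 (-1.96 to -0.63). Csn1s2a and Lalba were picked with their values in view. Genes of steroid metabolism showed 0 called higher and 2 called lower of 10 with enough reads, namely Akr1c18, which inactivates progesterone (123 and 33 reads), and Cyp1a1, picked with its values in view (19 and 0 reads).

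The receptors were then set against markers shared by luminal cells. The 8 pan-luminal markers had a median of 0.04, with 1 called higher and 0 lower, and their summed level was 3774 CPM in ctrl and 3894 in M2. Per 1000 reads of Krt8 and Krt18 Pgr had 72.8 reads in ctrl against 11.4 in M2, a log2 change of -2.68 (-2.81 to -2.55). Esr1 went from 23.4 to 5.56 reads on this scale, a change of -2.08 (-2.27 to -1.88), and Foxa1 from 55.7 to 17.3, a change of -1.69 (-1.80 to -1.58). The gap in these genes was thus no smaller relative to luminal keratins than relative to the whole library. It was smaller relative to Elf5, a gene of secretory luminal cells that was itself lower in M2. Per Elf5 read, the log2 change was -1.44 (-1.58 to -1.29) for Pgr, -0.83 (-1.03 to -0.63) for Esr1, -0.49 (-0.60 to -0.38) for Prlr and -0.45 (-0.57 to -0.32) for Foxa1. Against Epcam, Gata3 and Ly6a, the change was -2.60, -2.44 and -2.98 for Pgr and -2.00, -1.83 and -2.38 for Esr1. The size of the gap therefore depended on the luminal gene taken as reference, and among these it was smallest with Elf5.

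Markers of the hormone-sensing luminal cells other than the members did not move as a block. Of 10 such genes, 2 were called higher, 3 lower and 5 neither, with a median of -0.05. Areg, Stc2 and Spdef were lower, as given above. Tbx3 (1952 and 2047 reads) and Wnt4 (73 and 81 reads) differed by -0.00069 and 0.079. Ly6a, which encodes the sorting marker Sca1, had 314 and 447 reads and differed by 0.44 (0.23 to 0.65). Prom1, the surface marker CD133 of these cells, had 285 and 1125 reads, a difference of 1.91 (1.72 to 2.10). Tbx3, Wnt4, Ly6a and Prom1 were picked with their values in view. Secretory luminal and progenitor markers also split, with 6 of 13 called higher and 3 lower. Trf, Cd14 and Ltf were higher by 3.95, 3.43 and 2.90, and Wfdc18, Kit and Elf5 were lower, at -1.71, -1.67 and -1.11. Kit had 15110 and 4973 reads and was picked with its values in view.

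**Figure D4:**
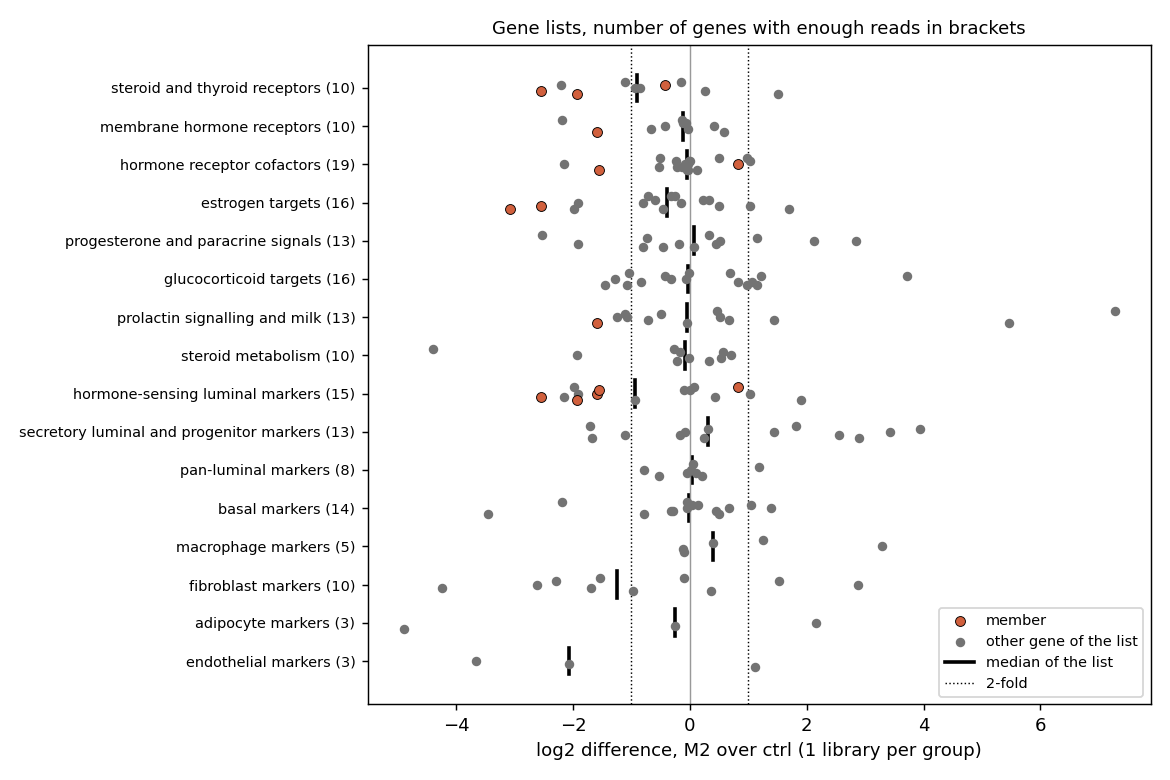
log2 difference, M2 over ctrl (horizontal axis, 1 library per group), of the genes with enough reads in 16 lists (rows, with the number of genes in brackets). Orange points are members, grey points other genes of the list, black bars the list medians, and dotted lines 2-fold. Members lie left of 0 in every row that holds one except Cited1, in the cofactor and hormone-sensing rows, and the other genes of the rows lie on both sides of 0.

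Other cell types also express some of these receptors, and their markers were counted. Fibroblast markers went both ways, with 4 of 10 called lower, 2 higher and 4 neither. Their summed level was 685 CPM in ctrl against 178 in M2, with 1 gene (Lum, 10 and 3 reads) at the detection limit in M2. Most of this gap came from Col6a3, which stood at 343 CPM in ctrl against 18.1 in M2, a difference of -4.24. Col3a1 (-2.61), Pdgfrb (-2.28) and Col1a2 (-1.68) were also called lower, while Fbln1 (2.88) and Dcn (1.53) were called higher. Pdgfra differed by 0.37 and Thy1 by -0.09, and neither was called. Dcn, Lum, Pdgfra and Thy1 were picked with their values in view. The part of fibroblasts in the lower receptor counts was not tested. Basal markers had a median of -0.0057, with 2 called higher (Krt17 and Lama3) and 2 lower (Oxtr and Cxcl14). Of 16 macrophage markers, 12 were at or under 3 reads in ctrl against 10 in M2. Adgre1, Ptprc, Tyrobp and Fcer1g had 0 reads in both libraries. Csf1r, with 94 and 92 reads, and Cd68, with 170 and 165, were counted in both and differed by -0.10 and -0.11. Aif1 was the 1 marker called, higher in M2 on 3 and 40 reads with an interval of 2.02 to 6.005, and Itgam had 3 and 9 reads and was not called. Itgam and the genes at 0 were picked with their values in view. The summed macrophage level was 65.0 and 83.5 CPM, most of it from Arg1, which had 1507 and 2090 reads. Adipocyte and endothelial markers summed to 11.9 and 2.18 CPM in ctrl and to 5.38 and 2.81 in M2, and Adipoq had 2 and 0 reads. The adipocyte list went both ways. Lep, at 7.21 CPM in ctrl, was called lower on 198 and 6 reads (-4.90), and Pparg was called higher on 9 and 46 reads (2.16).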

How the data were processed

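RNA of 3D-cultured mammary basal cells was sequenced (2 libraries, 1 per group, taken from the sample labels). The deposited table holds raw read counts per gene, made by the authors without normalization. The labels name a SMARTER mRNA kit and the submitters' processing notes name GRCm38 (mm10). The study's methods name an Illumina HiSeq X sequencer. The aligner, counter, annotation and use of strand are not given in the sources used here, so reads of overlapping genes cannot be assigned with certainty. Of 47214 genes named in GENCODE M21 (GRCm38), 99.9% overlap the gene of that name, and coordinates are those of the table.

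Scaling used TMM in edgeR 4.0.16 (R 4.3.3), which gave 1.02 (ctrl) and 0.980 (M2). The rest was computed in Python 3.11.15 with scipy 1.17.1. The function that gives the log2 difference, its counting interval and the call was tested on simulated counts. The read ratios, level intervals and motif search were not tested in this way. With 1 library per group the spread between replicates cannot be estimated, so no test of the groups was fitted and no p-value is given. The series text speaks of microarray, but the values are sequencing counts. The members and gene lists were chosen with earlier results of these data known. Besides the members, the 4 genes with the most reads and the 4 called genes with the widest difference (at least 30 reads in a library) were eligible to be named in each of 16 lists, and genes whose span overlaps a member. Of the 118 list genes of pathways, Sts had no row of that name. Since molecular identifiers are not mentioned, the intervals and detection limits reflect counting error alone. Upstream sequences are from RefSeq, and those of Nr3c1 were not used here. The alternatives are other scalings, pseudocounts, read minimums and call rules, and edgeR's exactTest with an assumed variation.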

Additional observations from a re-analysis of the deposited data

How the results depend on the processing

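The log2 differences of the members and the counts of calls over all genes, members and pathway genes were recomputed under 7 alternatives (total reads, RLE or upper quartile scaling, a pseudocount of 0.5 or 3 reads, at least 1 CPM in both libraries, or at least 1 read), and the counts also under 5 other call rules. Levels, read ratios, single lists and genes other than members were not recomputed. All 49 recomputed differences of the 7 members with enough reads stayed within the counting interval of the value given, and no called gene among them changed direction. With at least 1 CPM in both libraries, 806 genes were called higher and 581 lower, against 1626 and 1308, because genes near 0 in a library leave the table. At 4-fold there were 616 and 494, with 2 members lower (Pgr and Greb1) and 5 and 5 pathway genes higher and lower. At 1.5-fold there were 2564 and 2221, with 1 member higher (Cited1) and 24 pathway genes lower. The exactTest of edgeR with an assumed coefficient of variation of 0.2 left 964 and 691 genes, and 8 and 9 pathway genes. With 0.4 it left 175 and 130 genes, 1 member lower (Greb1), and 3 and 0 pathway genes. No replicate can give this coefficient here. Depth limits Tnfsf11, Calca, Esr2 and Gper1.

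No paired analysis was possible because both groups have only 1 library, and for the same reason leaving out a replicate could not be run.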
